A study of Drosophila melanogaster with 3 samples.

Results

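The wing and leg disc selector genes are 10 transcription factor genes, vg, ap, nub, Dll, hth, exd, tsh, salm, bi and en, among 13945 protein-coding genes on the 6 chromosome arms of the fly genome. They were taken by name, and each was given a window of its dm6 gene body with 10 kb on each side. The windows held 28 of the 7227 summits of the thresholded Cycle list. Binding was profiled by ChIP-seq with an anti-GFP antibody in whole white prepupae of 1 transgenic line that carries Cycle fused at its C terminus to GFP, males and females together and of unstated age in hours. The 3 biological replicates are the only group of the study, so no condition or genotype can be compared. The chromatin came from whole animals, and peaks of disc cells cannot be told apart from those of other tissues.

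Selector genes encode transcription factors that give the cells of a field their identity, and in the imaginal discs, the larval sacs that form the adult appendages, they decide between proximal and distal, wing and body wall, dorsal and ventral, and anterior and posterior. At the white prepupal stage the discs begin to evert. Cycle is a bHLH-PAS protein that pairs with Clock on the E-box CACGTG. Control of these genes is known to run through enhancers spread over large introns and the DNA around them, which is why the position of each summit is given here beside its strength.

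The sequence under the strongest thresholded summit is shown for hth, bi, nub and tsh, since these are the summits far from any protein-coding start that the description turns on. Each line holds the plus strand from 100 bp before to 100 bp after the summit, 201 bases from the RefSeq copy of the Release 6 (dm6) genome, and capitals mark a match to any of 7 motifs searched on both strands. They were the Clock and Cycle E-box CACGTG, a further E-box with the letters CAGCTG, the GAGA factor site GAGAGA, the DREF and BEAF-32 site TATCGATA, the site CATTCC of the TEAD family, the homeodomain core TAATTA, and the palindrome GTGCAC, which has no factor assigned here.
hth, chr3R:10579643-10579843: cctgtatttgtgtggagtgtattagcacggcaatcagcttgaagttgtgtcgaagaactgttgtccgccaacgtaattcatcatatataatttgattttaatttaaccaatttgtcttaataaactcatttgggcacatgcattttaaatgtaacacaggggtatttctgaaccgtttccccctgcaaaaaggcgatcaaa
bi, chrX:4449615-4449815: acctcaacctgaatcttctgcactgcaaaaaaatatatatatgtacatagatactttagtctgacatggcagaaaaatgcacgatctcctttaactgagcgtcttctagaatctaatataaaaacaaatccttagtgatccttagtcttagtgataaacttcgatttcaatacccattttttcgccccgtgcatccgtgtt
nub, chr2L:12602323-12602523: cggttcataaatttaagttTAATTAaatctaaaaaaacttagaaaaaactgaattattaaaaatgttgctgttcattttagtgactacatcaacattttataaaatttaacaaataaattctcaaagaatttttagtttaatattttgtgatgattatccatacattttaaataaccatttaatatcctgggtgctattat
tsh, chr2L:21846486-21846686: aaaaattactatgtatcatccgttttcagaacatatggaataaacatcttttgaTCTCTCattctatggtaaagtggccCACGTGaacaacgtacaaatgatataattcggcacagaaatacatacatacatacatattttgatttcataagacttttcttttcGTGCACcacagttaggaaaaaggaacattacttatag
The hth and bi windows, which belong to the strongest 2 of these summits, hold none of the 7 motifs. The tsh window holds CACGTG from 21 to 16 bp before the summit, GAGAGA read on the minus strand from 46 to 41 bp before it, and GTGCAC from 64 to 69 bp after it. The nub window holds TAATTA from 81 to 76 bp before the summit.

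Thresholded summits were found in the windows of 8 of the 10 genes, and in none of them at the gene's own start. The count of 8 lay near the background, since 71.5% of all protein-coding genes, and 81.6% of the 4173 genes at least as long as the shortest member (4042 bp), had a thresholded summit in such a window. The hth window held 12 summits, those of Dll and bi 4 each, those of vg, nub and exd 2 each, and those of tsh and en 1 each. The windows of ap and salm held 0. Per length the windows held 0.528 summits per 10 kb, and the 6 arms held 0.540 per 10 kb. The windows were thus about as densely occupied as the arms, while hth accounted for 12 of the 28 summits and the other 9 windows held 0.423 per 10 kb.

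**Figure D1:**
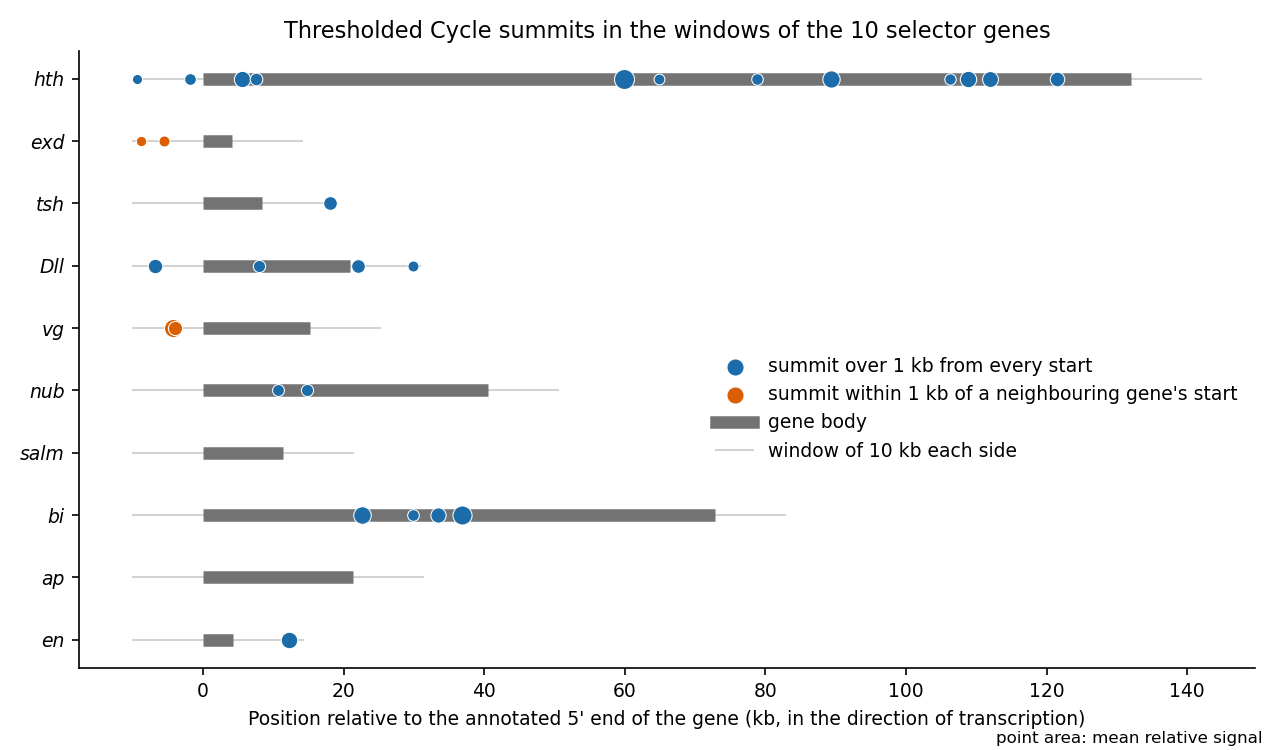
Position of the 28 thresholded summits in the window of each gene, in kb from the annotated 5' end in the direction of transcription, with point area set by the mean relative signal. Of the hth summits 10 lie in the gene body and 2 upstream, those of bi and nub lie in the gene bodies, those of vg and exd sit upstream at starts of neighbouring genes, and the windows of ap and salm hold none.

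The summits lay away from gene starts. Of the 28, 24 were over 1 kb from every protein-coding start, or 85.7% (exact 95% interval 67.3 to 96.0%), against 52.1% of all thresholded summits (51.0 to 53.3%). Introns held 17 of the 28, or 60.7% (40.6 to 78.5%), against 32.5% of all summits, and all 17 were introns of the member itself. Of these 17, 10 lay in hth and 4 in bi, so the intron share rests mainly on these genes. Intergenic sequence held 7, or 25.0% (10.7 to 44.9%), against 18.7% of all summits. The other 4 lay within 1 kb of a start, 14.3% (4.03 to 32.7%) against 47.9%, and each time the start belonged to a neighbour of the selector gene. The intervals cover counting error only and treat the summits as independent. Without the hth window the share over 1 kb from every start was 75.0% of 16.

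**Figure D2:**
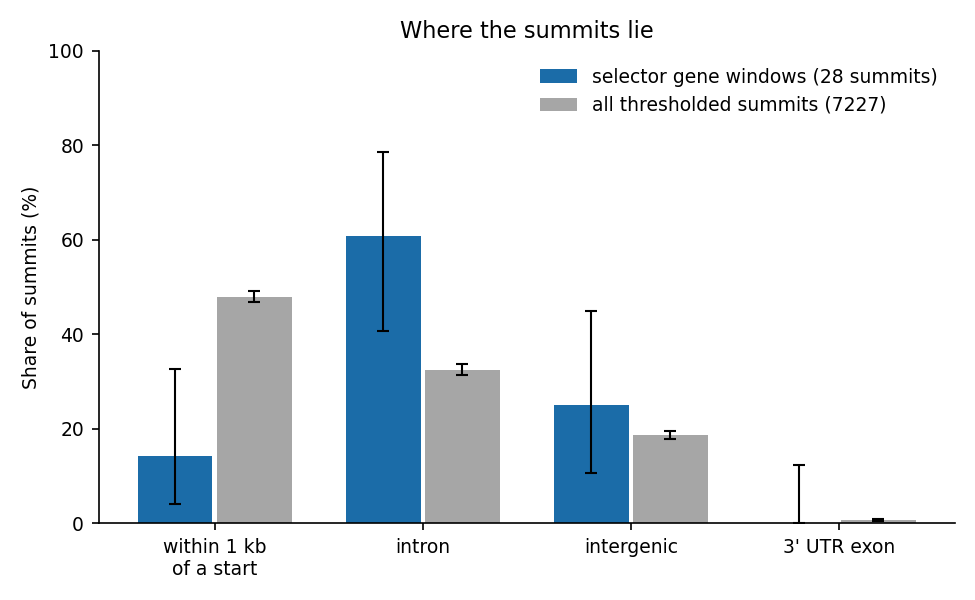
Share of summits in 4 location classes for the selector gene windows (blue) and for all thresholded summits (grey), with exact 95% binomial intervals. In the windows introns hold 60.7% and start regions 14.3%, against 32.5% and 47.9% of all summits. Of the 17 intronic summits in the windows, 10 lie in hth.

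None of the 10 genes had a thresholded summit within 1 kb of any of its own transcript starts, where a count of 0 of 10 allows a share of up to 30%. The share was 28.6% over all protein-coding genes and 40.5% over those at least as long as the shortest member. The nearest thresholded summit to an own start lay 1895 bp away for hth, 4065 bp for vg, 5509 bp for exd, 6908 bp for Dll, 8282 bp for bi, 10602 bp for nub, 11110 bp for en and 17993 bp for tsh. For salm and ap it lay 48952 and 55164 bp away. The median distance from a summit to the nearest protein-coding start was 11263 bp in the windows and 1149 bp over all thresholded summits.

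The strength of the summits was ordinary. The authors' pooled signal ran from 117 to 445 in the windows, with a median of 204, against a range of 110 to 5705 and a median of 212 over the whole list. The relative signal, which is the signal in a replicate divided by the median over all thresholded peaks found in that replicate, had a median of 0.962 in the windows and 0.984 over all peaks. No summit of the windows ranked above 1241 of 7227, and 13 of the 28 were among the 3613 strongest. A peak was present in all 3 replicates for 26 of the 28 (92.9%), against 90.1% of all thresholded peaks. Among these 26 the summit position differed between replicates by a median of 40 bp, against 45 bp over all peaks, and the median coefficient of variation of the relative signal was 22.9% in both.

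Among the genes of the proximal limb and trunk, hth (3R, 10507561 to 10639568) had the most summits, in the longest window, while per length its 0.789 per 10 kb lay below the 0.832 of exd. It encodes a TALE homeodomain protein that carries Exd into the nucleus. Of its 12 summits, 10 lay in its introns and 2 upstream, and their relative signals ran from 0.528 to 2.04. The strongest, at position 10579743, lay in intron 6 of the 13 of the canonical transcript, an intron of 23710 bp, and 34533 bp from the nearest protein-coding start. It stood at 2.55, 1.74 and 1.84 in replicates 1, 2 and 3, a mean of 2.04 ± 0.442 (SD, n = 3), so all replicates placed it above the median peak. The next, at 10550305 in intron 7, stood at 1.62, 1.63 and 1.36, a mean of 1.53 ± 0.152 (SD, n = 3).

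The 3' part of hth carried a run of further summits. The one at 10530756 in intron 9 stood at 1.38 ± 0.182, the one at 10527640 in intron 10 at 1.29 ± 0.220, and the one at 10518026 in intron 11 at 1.08 ± 0.0333 (each SD, n = 3). Weaker summits lay in the same introns as these or as the strongest pair, at 10533386 (0.659), 10560815 (0.681) and 10574729 (0.602). The 8 summits in introns 6 to 11 lay over 30 kb from every protein-coding start, a distance that 111 of all 7227 summits, or 1.54%, exceeded. Each of these 8 was intronic in 2 of the 5 hth transcripts. The summit at 10527640, 86636 bp from the nearest protein-coding start, was by this distance the most remote of the whole list. The gene has starts at 10614276 and 10639568, and near the outer one lay the summits at 10634055 (1.36 ± 0.299) and 10632010 (0.815 ± 0.115; both SD, n = 3), in an intron that 1 of its 5 transcripts has. The upstream summit at 10641463, 1895 bp before the outer start, was uneven, at 0.429 in replicate 1 against 0.795 and 0.890 in replicates 2 and 3. Of the 12, 6 had a mean above 1, and these 6 were all intronic.

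The gene exd (X, 15992468 to 15996509) encodes the homeodomain partner of Hth and of the Hox proteins. Its 2 summits lay upstream, at 15986959, 151 bp from a start of ND-20, a gene for a subunit of respiratory complex I, and at 15983685, 87 bp from a start of Slc25A46a. They stood at 0.800 and 0.458, and at 0.526 and 0.573, in replicates 2 and 3, while replicate 1 had a peak at neither. The list of replicate 1 in fact held 0 peaks anywhere in the exd window, against 14 each in replicates 2 and 3. Over the whole X, 3569 of the peaks of replicate 1 (11.9%) lay on this chromosome, against 22.1% and 21.8% in replicates 2 and 3, and the part of this in the exd window was not tested. In replicate 3 the highest peak of the window was instead at 15992280, near the exd start itself, at 0.634. Neither exd summit was left when support from the strongest peaks of both other replicates was required, whichever replicate was left out.

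The gene tsh (2L, 21828593 to 21837011) encodes a zinc finger protein of the trunk and the proximal appendages. Its single summit, at 21846586, lay 9575 bp past the 3' end and 17993 bp from the start, in intergenic sequence. It stood at 1.29, 0.715 and 0.881 in replicates 1, 2 and 3, a mean of 0.963 ± 0.297 (SD, n = 3), and the replicates placed it within 2 bp of each other. This is the only summit of the windows with CACGTG within 100 bp, in the sequence printed above. A further summit lay 10512 bp past the gene, just outside the window, at 0.671.

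Dll (2R, 24814822 to 24835667), the homeodomain gene of distal leg fate, had 4 summits, at 0.979 per 10 kb the densest of the 10 windows, a density above that of 72.9% of protein-coding genes. The strongest, at 24807914, lay 6908 bp upstream of the start and 1411 bp from that of CG42851, and stood at 1.19, 1.03 and 0.987, a mean of 1.07 ± 0.108 (SD, n = 3). The summit at 24836855, 1188 bp past the 3' end, stood at 1.22, 1.06 and 0.598. A start of CG3650, 12139 bp away, was the nearest to it. The intronic one at 24822713, in intron 3 of 4, stood at 0.989, 0.557 and 0.733. The last, at 24844704, lay 9037 bp past the gene and 4290 bp from a start of CG3650, again the nearest. It had the lowest mean, 0.627 ± 0.192 (SD, n = 3). The 4 means lay between 0.627 and 1.07, and the replicate ranges of neighbours in this order overlapped.

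Of the wing field genes, vg (2R, 12884201 to 12899385), whose product joins the DNA-binding protein Scalloped, had 2 summits 4267 and 4065 bp upstream. Both lay within 1 kb of a start of Nmda1, a glutamate receptor gene, at 136 and 94 bp, and inside the annotated bodies of AspRS and Nmda1. The stronger, at 12879934, stood at 1.57, 1.31 and 2.13, a mean of 1.67 ± 0.417 (SD, n = 3), and the weaker, at 12880136, at 1.03 ± 0.241 (SD, n = 3). The body of vg, where introns hold its known wing enhancers, had no thresholded summit, and neither start of the gene had a pooled peak within 1 kb, although the list of replicate 1 had 1 weak peak there, at rank 18065. The gene nub (2L, 12587625 to 12628135), a POU homeodomain gene of the wing hinge and pouch, had 2 summits in intron 2 of 5, an intron of 19005 bp. This intron is present in 1 of the 3 nub transcripts. The summit at 12602423 stood at 0.486, 0.578 and 1.21, a mean of 0.756 ± 0.392, and the one at 12598227 at 0.940, 0.738 and 0.490, a mean of 0.723 ± 0.225 (both SD, n = 3). The order of the 2 nub summits thus turned between replicates, with the first higher in replicate 3 only.

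The genes salm and bi are both targets of Dpp signalling in the wing pouch, and the thresholded list held summits for bi alone. For bi (X, 4412856 to 4485647), the T-box gene also known as optomotor-blind, 4 summits lay in intron 2 of the 7 of the canonical transcript. This intron has 21189 bp, and the 4 summits were intronic in all 7 transcripts. The strongest, at 4449715, stood at 1.36, 2.36 and 1.89, a mean of 1.87 ± 0.505, and the summit at 4435417 at 1.28, 1.85 and 1.59, a mean of 1.57 ± 0.286 (both SD, n = 3). In both, replicate 1 was the lowest. The summit at 4446277 ran the other way, at 1.74, 1.13 and 0.702, and that at 4442679 was even, at 0.690, 0.672 and 0.724. For salm (2L, 11434311 to 11445614), a zinc finger gene of the central wing, the thresholded list was empty over the whole window. The window held 12 pooled peaks, the strongest ranking 12345 of 29484, at 0.373, 0.235 and 0.167 in replicates 1, 2 and 3.

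Of the compartment genes, ap (2R, 5706202 to 5727525), the LIM-homeodomain gene of the dorsal wing compartment, had 14 pooled peaks and 0 thresholded ones. Its strongest pooled peak ranked 9242, 166 bp from a start of vlc, and stood at 0.443, 0.462 and 0.275 in replicates 1, 2 and 3. The gene en (2R, 11524006 to 11528210), the homeodomain gene of posterior compartments, had 1 summit at 11515959, 8047 bp past its 3' end in the sequence between en and its paralog inv. This summit had the closest replicate values of the 28, at 1.39, 1.40 and 1.38, a mean of 1.39 ± 0.00943 (SD, n = 3). Its replicate ranks were 2219, 2318 and 2326. Outside the window, thresholded summits also lay 11110 and 16032 bp upstream of en, at 0.735 and 0.720, and 1 at 11509740, 14266 bp past its 3' end and beside that of inv, at 0.781. In all, 14 more thresholded summits lay between 10 and 20 kb from a member's gene body, 6 of them around vg.

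**Figure D3:**
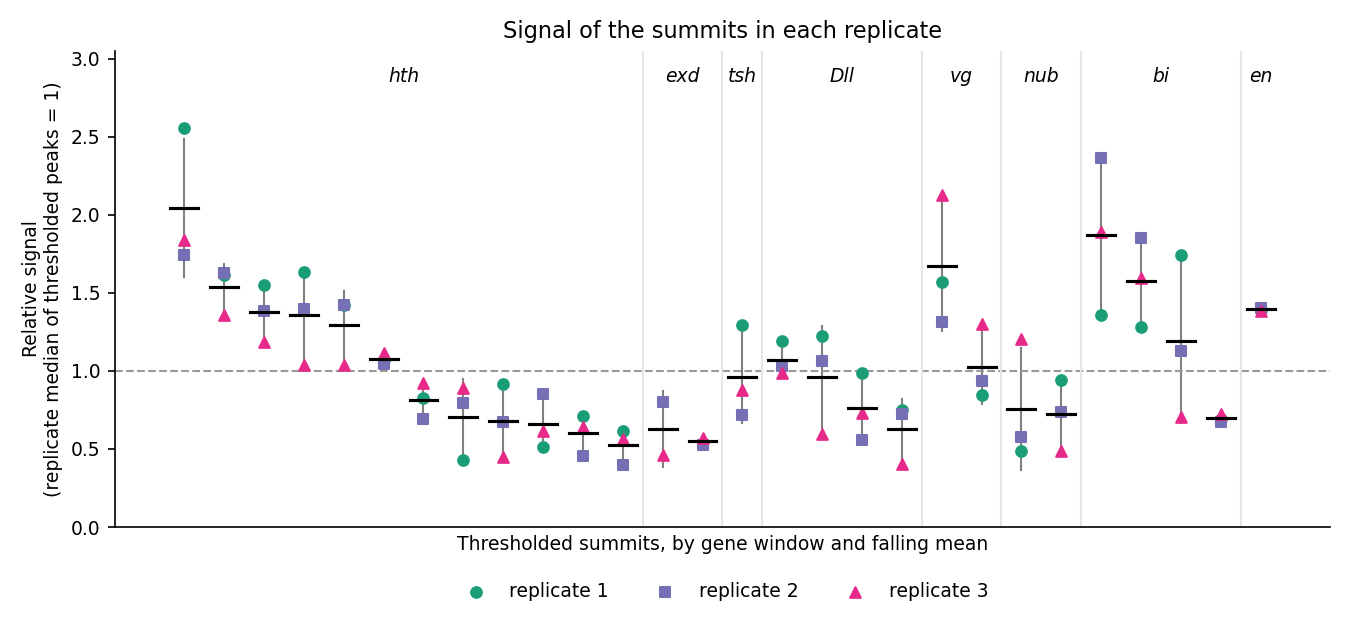
Relative signal of the 28 thresholded summits in replicates 1, 2 and 3, by gene window, where 1 is the median of the thresholded peaks in that replicate, horizontal bars are means and vertical bars the SD. Means run from 0.528 to 2.04, both ends in the hth window, and the exd summits have no value in replicate 1.

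In the pooled list before the threshold the windows held 190 peaks, 3.58 per 10 kb against 2.20 per 10 kb of the arms. Set against the windows of all protein-coding genes, the pooled density was high for exd and hth, above that of 91.0% and 90.6% of genes, and for salm and ap, above 78.5% and 71.7%. It was nearer the middle for en (69.7%), nub (66.3%), bi (59.8%), vg (54.8%) and Dll (53.4%), and tsh lay above 36.3% of genes. Of the 190 peaks, 28, or 14.7% (exact 95% interval 10.02 to 20.6%), were in the thresholded list, against 24.5% of all pooled peaks. The hth window alone held 75 of the 190, and the other 9 windows together had 3.04 per 10 kb with 13.9% past the threshold. Of the 162 peaks below the threshold, 56 had a peak in all 3 replicates, or 34.6% (27.3 to 42.4%), against 30.4% of all such peaks. These repeated weak peaks made up 31 of the 63 peaks below the threshold in the hth window, 5 of 14 for ap and 5 of 12 for salm. They were 4 of 17 for nub, 3 of 6 for Dll, 3 of 4 for tsh, 3 of 22 for bi, and 1 of 7 each for vg and en. The count for exd, 0 of 10, was fixed in advance by the 0 peaks of replicate 1 in that window. The replicate lists held 150, 198 and 194 peaks in the windows in replicates 1, 2 and 3.

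**Figure D4:**
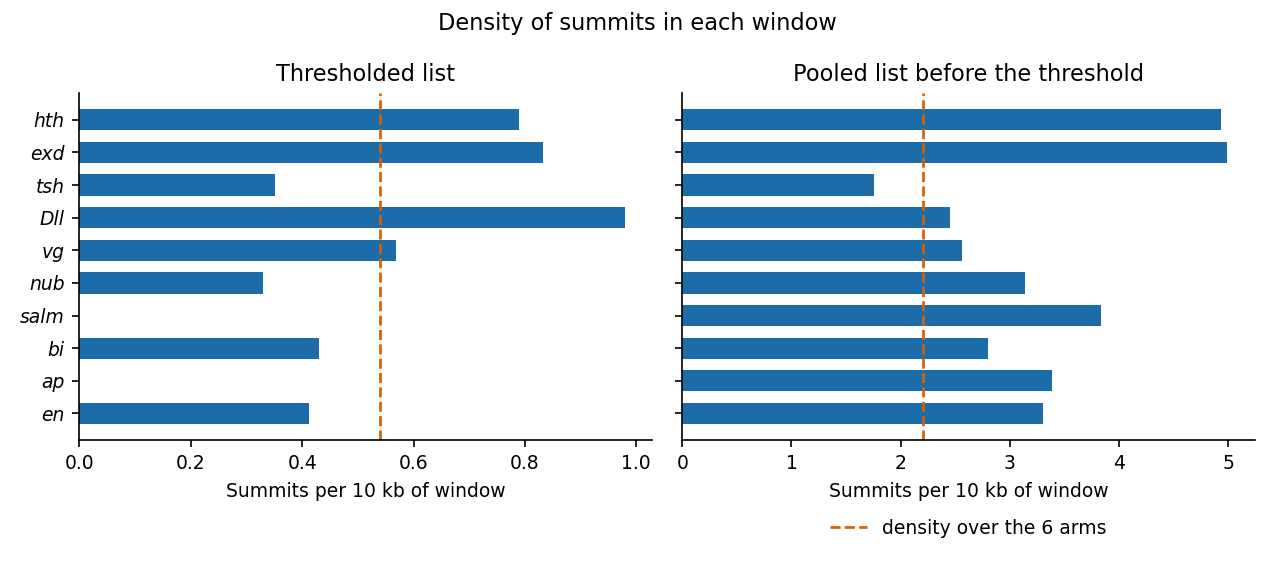
Summits per 10 kb of window for each gene in the thresholded list (left) and in the pooled list before the threshold (right), with the density over the 6 arms as a dashed line. In the thresholded list 4 windows exceed 0.540 and 2 are at 0, while in the pooled list 9 of the 10 exceed 2.20, of which vg, Dll and bi are above 53.4 to 59.8% of protein-coding gene windows.

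A pooled peak did lie within 1 kb of an own start in 9 of the 10 genes, all but vg, against 55.4% of all protein-coding genes. That share was not matched for gene length or number of starts. These start peaks were weak, with pooled ranks from 9028 to 19334 of 29484, outside the 7227 of the thresholded list. The strongest were those of Dll, 58 bp from the start with a signal of 87.1 (rank 9028), and bi, 220 bp from a start with a signal of 82.5 (rank 9465). For Dll the best peak near the start ranked 11005, 6895 and 11169 in replicates 1, 2 and 3. The weakest was that of en, 486 bp from a start, at 37.1 (rank 19334), and in replicate 3 en had no peak within 1 kb of a start. In replicate 1 the same held for bi, nub and exd. The hth start peak had a signal of 59.2 (rank 12676), against 445 at its strongest intronic summit in the same list.

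GAGAGA, the site of GAGA factor, lay within 100 bp of 7 of the 28 summits, or 25.0% (10.7 to 44.9%), against 9.66% of all thresholded summits and 11.2% of the 3766 over 1 kb from every start. Of the 7, 6 were in the hth window and the other was that of tsh. GTGCAC was found at 5 summits, or 17.9% (6.06 to 36.9%), against 8.36%, in the hth, en and tsh windows. TAATTA, a core of homeodomain sites, was found at 5, or 17.9%, against 16.8%, and CAGCTG, against 7.97%, and CATTCC, the site of the TEAD family to which Scalloped belongs, against 6.97%, at 1 hth summit each. CACGTG was found at 1 summit, or 3.57% (0.0904 to 18.3%), against 1.63%. Of the 3766 summits over 1 kb from every start, 10.2% had GTGCAC, 17.2% TAATTA, 5.15% CAGCTG, 7.43% CATTCC and 1.25% CACGTG. TATCGATA was found at 0 of 28, which allows a share of up to 10.7%, against 3.32% of all summits and 0.478% of those over 1 kb from every start. Letters can be shared between CACGTG and GTGCAC, and 13 of the 28 summits had none of the 7 motifs. The median GC content of the 201 bp windows was 35.1%, against 34.3% over all summits.

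Among 36 other genes of limb patterning, 24 (66.7%) had a thresholded summit in the gene body with 10 kb on each side, against 71.5% of all protein-coding genes, and 2 (5.56%), Bx and dac, had it within 1 kb of an own start, against 28.6%. Their windows held 85 summits, 82.4% of them over 1 kb from every start, with a median relative signal of 0.892. Partners and paralogs of the 10 genes divided between occupied and empty windows. Bx, the LIM-only gene that antagonises Ap, had 10 summits, the strongest intronic at 3.57, 2.31 and 1.67 in replicates 1, 2 and 3, a mean of 2.52 ± 0.966 (SD, n = 3). The en paralog inv had 5 summits, 1 of them the shared one between the genes. The windows of sd, the Vg partner gene, of Chi, the Ap cofactor gene, and of pdm2, salr and tio, the paralogs of nub, salm and tsh, held 0. The highest relative signals of the list were 5.52 ± 0.739 in the window of tup, 5.45 ± 1.56 in that of bab1, 5.11 ± 0.337 in that of C15, 3.99 ± 0.789 in that of drm and 2.99 ± 0.681 in that of Doc1 (each SD, n = 3). At each of these 5 summits the nearest protein-coding start belonged to another gene, at CG10602, CG9205, sp3, IFT57 and Argk2 in this order.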

How the data were processed

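The 3 biological replicates form 1 group. Per the texts deposited with the samples, the authors called peaks on each replicate and on the pooled replicates against 1 control alignment, and derived the IDR-thresholded list (IDR, irreproducible discovery rate) from these. The peak signal is the authors' deposited value; its scale differs between lists. For the peak caller, its cutoffs and the aligner, the name was not given in the sources used here. Since no list holds reads, depth is unknown. The dm6 lists held 30000, 30000 and 29999 peaks (replicates 1, 2 and 3), 29484 (pooled) and 7227 (thresholded). The dm3 lists were not used here, nor were 32 peaks of replicate 3 outside the 6 arms. The control alignment was not analysed here, and 0 columns of other samples were present.

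Gene models came from Ensembl release 115 (build 6.54), and sequence from the Release 6 genome. A summit is the peak start plus its deposited offset, given as a 1-based position. A replicate value is that of the overlapping replicate peak (1 bp or more) nearest by summit. Starts are those of all transcripts of protein-coding genes. Shares carry Clopper-Pearson (exact) 95% bounds, a count of 0 is read as up to 3 counts, and both describe counting error alone. No test was run. Leaving out a replicate kept the summits that the 7227 strongest peaks of both others overlapped. All 10 members, with every summit in counts, and limb genes that were paralogs or partners of members or held the 5 highest relative signals above the median member, were named. The members and lists were chosen with earlier results of these data known. Overlap, window and motif searches were tested on simulated data. Python 3.11.15, numpy 2.4.6, pandas 2.3.3, scipy 1.17.1 and matplotlib 3.10.9 were used.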

Additional observations from a re-analysis of the deposited data

How the results depend on the processing

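The count of 8 genes with a summit, of 28 summits and of 24 other limb genes depended on the flank: with no flank they were 4, 17 and 15, and 100% of those 17 summits lay over 1 kb from every start; with a flank of 5 kb 5 genes had a summit. Among the 3613 strongest peaks 5 genes and 13 summits were left, with a median relative signal of 1.38. In the pooled list before the threshold there were 190 summits, with a median of 0.275, and 9 genes had a summit within 1 kb of an own start. This last count was 0 in the thresholded list and 2 there with 5 kb. It was also 0 with 500 bp, with the first start of each gene alone and with any 1 replicate left out. Those settings only narrow the distance, the starts or the summits, so a count of 0 was fixed in advance and shows no robustness. The share of all protein-coding genes was computed only for the 10 kb flank in the thresholded list and for 1 kb from a start. It was not computed for other flanks, the 3613 strongest peaks, 5 kb from a start or a replicate left out. Changes of the gene counts at those settings thus cannot be told apart from a change over all genes. Leaving out a replicate gave 7 genes each time, 22 to 23 summits and 90.9 to 91.3% over 1 kb from every start, and exd was the gene that lost its summits in each case. The median relative signal, 0.962, was 1.04 to 1.11 when a replicate was left out, the highest without replicate 3, and 0.636 when divided by the mean over peaks. The leave-out medians cover only the 22 to 23 summits kept by support from the strongest peaks of both other replicates. They are thus not medians of the same 28 summits. Without the hth window, an alternative chosen after seeing the data, 16 summits were left. No paired analysis was possible because there is 1 group.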
